A study of Mus musculus with 6 samples.

Results

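The genes described here carry glucose into the cell and burn it. They encode glucose transporters, glycolytic enzymes, lactate and pyruvate handling proteins, the pentose phosphate pathway and the tricarboxylic acid (TCA) cycle. The list is a set of 45 gene names, put together with earlier results of these data known, so its share of calls is a description. Of these, 44 had a probe set (the array's measuring unit, a group of short probes) that the platform annotation assigns to 1 gene, out of 18193 genes with such a probe set. Where a gene had several probe sets, the one brightest on average across the 6 arrays stands for it. G6pdx, the first enzyme of the pentose phosphate pathway, had none and is not analysed here.

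The cells were long-term haematopoietic stem cells (LT-HSCs), which sustain blood formation for life, sorted from mouse bone marrow as Lin-Sca1+CD150+CD48- cells. Double knockout (dKO) mice carried MxCre with floxed c-myc (Myc) and floxed N-myc (Mycn), and the controls had the floxed genes but no MxCre. All mice were 8 weeks old, on a mixed background, and received 2 daily doses of pI-pC, a double-stranded RNA that induces interferon and thereby the Mx promoter of MxCre. Marrow was taken 3 days after the last dose. Each group had 3 arrays, each of a separate pool of 3 dKO or 2 control mice. The Mx promoter is not limited to stem cells, and no group carried MxCre without floxed genes, so effects of the recombinase and of the deletion cannot be told apart. The genotype label of control replicate 2 reads M-Myc where the others read N-myc.

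Glycolysis converts glucose to pyruvate, which is either reduced to lactate and exported or taken into mitochondria and oxidised in the TCA cycle. Pyruvate dehydrogenase is the gate between these fates, and its kinases (the Pdk genes) close it. Quiescent LT-HSCs are known to lean on glycolysis, and Pdk enzymes are known to take part in this. Myc proteins are known as activators of many glycolytic genes, among them Ldha, through the DNA sequence CACGTG, the E-box. The comparison asks how the transcripts of each step stood in stem cells shortly after the loss of both Myc genes.

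Myc, and Mycn by 2 of its 3 probe sets, fell in the dKO arrays. Myc was at 10.40, 10.57 and 10.11 in control and 7.28, 7.77 and 7.24 in dKO arrays (log2 RMA values, the scale of all levels below), without overlap. The 3 Mycn probe sets differed among themselves. One went from 10.81 ± 0.06 to 3.46 ± 0.32 (SD, n = 3 arrays per group), a level in the range of the array's negative controls (2.13 to 3.92), another from 8.94 ± 0.27 to 7.33 ± 0.34, and the dimmest differed by -0.08 (log2, limma adjusted p = 0.858). Which of them lie in the deleted part was not tested. Of the genes of the sort, Slamf1, which encodes CD150, differed by 0.08 (log2, limma adjusted p = 0.855), and Cd48, whose protein the sort excludes, rose by 1.16. Of stem cell genes that the sort did not use, Mecom differed by -0.04, while Kit, Tek and Hlf fell, with log2 changes of -0.87, -2.25 and -1.66. Array medians lay between 5.90 and 5.97. The Gapdh 3' minus 5' difference, which reflects RNA quality, ran from 2.12 to 2.36 on the control side and from 2.39 to 2.47 on the dKO side, without overlap. The same difference for beta-actin overlapped, at 0.10 to 0.23 in the controls and 0.20 to 0.21 in the dKO arrays. The part of RNA quality in the results was not tested. The number of arrays, 3 a group, limits the precision.

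The calls among these genes lay along the route from glucose to lactate, at the pyruvate dehydrogenase kinases and in the pentose phosphate pathway, and none of the 13 listed TCA cycle and feeder genes was called. In dKO cells 8 of 44 genes rose past a limma adjusted p of 0.05, adjusted over all 45037 probe sets. They were the glucose transporter Slc2a3, the hexokinase Hk3, the phosphofructokinase Pfkp, the lower glycolytic enzymes Pgam1 and Pkm, the lactate dehydrogenase subunit Ldha, the kinase Pdk3 and the pentose phosphate enzyme Taldo1. Another 4 fell: the lactate dehydrogenase subunit Ldhb, the lactate exporter Slc16a1 and the kinases Pdk1 and Pdk2. The remaining 32 did not pass. In such pooled cells, fewer cells expressing a gene and less RNA per cell cannot be told apart. Of all probe sets 6.99% were called. Over the 18193 genes, by 1 probe set each, 8.05% were called, 4.49% as higher and 3.56% as lower, against 27.3% of these 44. The 44 genes were also bright, with a median level of 9.18 against 6.41 over all genes, and bright genes were called more often. Among genes with a mean level of at least 8, 16.2% of 4939 were called, and 10 of the 32 such members. Control and dKO values did not overlap at 21 of the 44 genes, 14 with the dKO arrays higher and 7 lower, against 30.0% of all genes. The median difference of the 44 genes was 0.12 (log2), against 0.01 over all genes.

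Leaving out 1 array lowered the count of rises. It was 4 when control replicate 1 was dropped, 5 when dKO replicate 1 was dropped, and 2 when any of the other 4 arrays (control replicates 2 and 3, dKO replicates 2 and 3) was dropped. The count of falls was 3 in 5 of the 6 leave-outs and 4 without dKO replicate 2, where Aldoc passed and Ldhb did not. Slc2a3, Pfkp, Slc16a1, Pdk1 and Pdk2 passed in all 6 leave-outs and in 7 other settings.

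**Figure D1:**
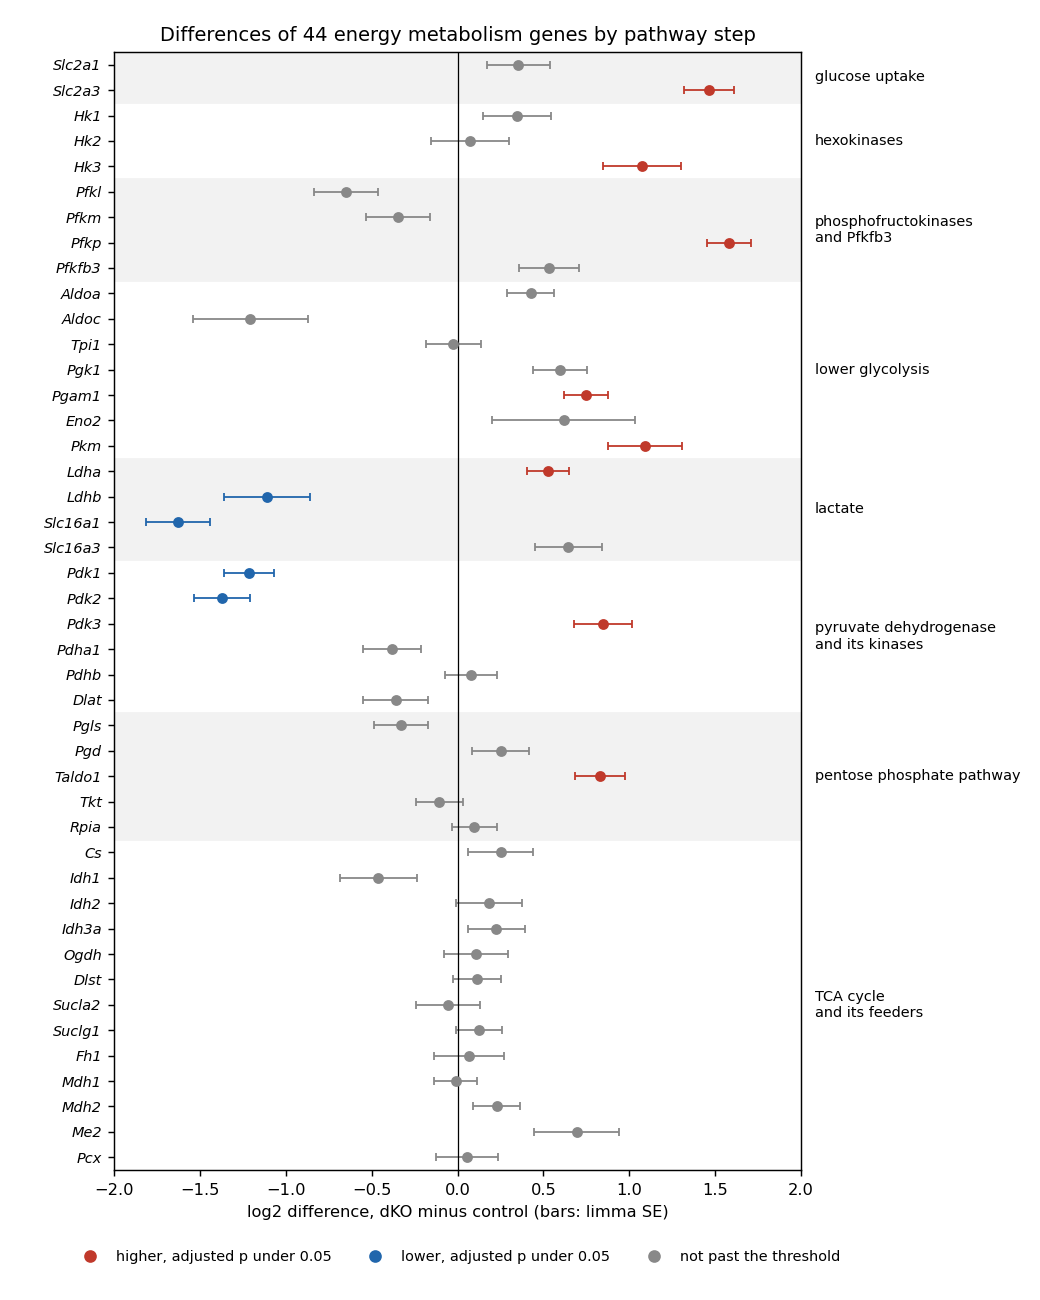
The log2 difference between dKO and control arrays (horizontal axis, bars are limma SE) is drawn for each of the 44 genes, grouped from glucose uptake at the top to the TCA cycle at the bottom. The 8 red genes rose and the 4 blue genes fell past a limma adjusted p of 0.05, and the 13 TCA genes at the bottom are all grey, between -0.46 and 0.69.

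The E-box was searched in promoter windows from 250 bases before to 50 bases after each annotated start, with sequences from RefSeq (GRCm38.p6). Of the 44 genes, 41 had an entry, and Slc2a3, Idh3a and Me2 had none. CACGTG, which reads the same on both strands, was present in a window of 7 of the 41 genes (17.1%), against 8.09% of the 27025 genes of the table. Among the called genes it was found at Ldha, which rose, and at Slc16a1 and Pdk2, which fell, so E-box letters stood before genes that moved in both directions. The other 4 were Pfkfb3, Pfkm, Ogdh and Pcx, none of them called. The bases before the start of the 3 called genes are shown because they hold the motif, in capitals. They lie at chr3:104638414-104638663 on the plus strand for Slc16a1, chr7:46845554-46845803 on the plus strand for the upstream of 2 Ldha starts, and chr11:95041372-95041621 on the minus strand for the upstream of 2 Pdk2 starts. The windows of the other Ldha start and the other Pdk2 start hold no CACGTG.
Slc16a1: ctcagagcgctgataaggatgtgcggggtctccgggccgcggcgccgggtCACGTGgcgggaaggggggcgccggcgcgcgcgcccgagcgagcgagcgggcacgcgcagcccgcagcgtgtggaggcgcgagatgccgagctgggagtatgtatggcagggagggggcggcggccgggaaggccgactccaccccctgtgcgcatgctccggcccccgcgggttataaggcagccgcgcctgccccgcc
Ldha: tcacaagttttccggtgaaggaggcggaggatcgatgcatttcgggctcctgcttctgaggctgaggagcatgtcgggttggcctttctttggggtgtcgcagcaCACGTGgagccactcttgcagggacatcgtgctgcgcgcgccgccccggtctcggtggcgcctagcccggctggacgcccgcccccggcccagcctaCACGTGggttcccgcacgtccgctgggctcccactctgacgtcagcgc
Pdk2: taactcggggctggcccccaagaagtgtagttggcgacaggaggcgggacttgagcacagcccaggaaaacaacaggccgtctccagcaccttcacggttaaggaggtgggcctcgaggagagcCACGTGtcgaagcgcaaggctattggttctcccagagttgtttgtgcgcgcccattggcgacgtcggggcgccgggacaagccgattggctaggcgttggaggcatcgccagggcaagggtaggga

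The E-box began 200 bases before the start at Slc16a1, 145 and 48 bases before it at Ldha, and 126 bases before it at Pdk2. Pfkp, which had the highest rise of the list, is shown as well. The Slc16a1 bases above also hold 2 copies of GCGTG or its complement CACGC before the start, which are not in capitals there. The Pfkp window, at chr13:6648772-6649021 on the minus strand, holds no CACGTG but has 3 copies of GCGTG before the start, in capitals. GCGTG is 1 form of the core of the element bound by hypoxia-inducible factors.
Pfkp: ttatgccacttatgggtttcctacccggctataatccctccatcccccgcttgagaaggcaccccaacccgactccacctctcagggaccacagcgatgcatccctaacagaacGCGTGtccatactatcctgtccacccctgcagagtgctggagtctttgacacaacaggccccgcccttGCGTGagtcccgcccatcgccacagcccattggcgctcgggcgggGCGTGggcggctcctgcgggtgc

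GCGTG or its complement CACGC was found in a window of 26 of the 41 genes (63.4%), against 35.2% of all genes in the table. It can share end bases with CACGTG. It was present at 5 of the 7 risers with an entry, at 3 of the 4 genes that fell, and at 18 of the 30 uncalled genes (60%). These matches are letters in a window and do not show binding.

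At the step of glucose uptake, Slc2a3, the high-affinity transporter GLUT3, rose. Its values were 10.33, 10.55 and 10.55 in control and 12.11, 11.82 and 11.89 in dKO arrays. The lowest dKO array lay 1.27 log2 units above the highest control array. The rise was 2.76-fold (1.47 ± 0.15 in log2 units with its SE, limma adjusted p = 0.00383). The probe set's suffix, _s_at, marks probes that can match more than 1 transcript. The 3 other Slc2a3 probe sets also rose, by 1.03 to 1.70. Slc2a1, the widely expressed transporter GLUT1, was at 9.63, 9.69 and 10.17 in control and 10.27, 10.23 and 10.04 in dKO arrays. Its groups overlapped, with a log2 difference of 0.35 ± 0.18 (SE, limma adjusted p = 0.326). Its 2 other probe sets were higher in each dKO array than in each control array. They differed by 0.35 and 0.48 and did not pass (limma adjusted p = 0.274 and 0.124).

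Hexokinases trap glucose inside the cell as glucose 6-phosphate. Hk3, the form typical of myeloid cells, was at 7.38, 7.60 and 7.14 in control and 8.08, 8.85 and 8.42 in dKO arrays. All dKO values were above all control values, though the dKO arrays were spread widely. It rose 2.11-fold (1.08 ± 0.23 in log2 units with its SE, limma adjusted p = 0.0353), and its other probe set rose by 1.18. Leaving out any array but dKO replicate 1 ended the call, with a limma adjusted p of up to 0.103. The broadly expressed Hk1 differed by 0.35 ± 0.20 and the mitochondria-bound, insulin-responsive Hk2 by 0.07 ± 0.23, and neither passed. For Hk2, dKO replicate 1 was the lowest of the 6 arrays, at 7.54, and the other 2 dKO arrays, at 8.20 and 8.36, were the highest.

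Phosphofructokinase commits sugar to glycolysis and has 3 isoforms, known as the liver (Pfkl), muscle (Pfkm) and platelet (Pfkp) forms. Pfkp was at 8.71, 8.84 and 8.68 in control and 10.33, 10.26 and 10.38 in dKO arrays. Arrays within each group lay close together, and the nearest arrays of the groups were 1.42 log2 units apart. The rise was 2.99-fold (1.58 ± 0.13 in log2 units with its SE, limma adjusted p = 0.0022), and the 2 other Pfkp probe sets rose by 1.21 and 2.18. Pfkl went the other way, from 8.09 ± 0.19 to 7.44 ± 0.28 (SD, n = 3), with each dKO value below each control value, but the log2 difference of -0.65 ± 0.19 (SE) did not pass (limma adjusted p = 0.0905). Its 2 other probe sets differed by -0.61 and -0.62, and the mean over its probe sets passed (log2 change -0.63, limma adjusted p = 0.0329). Pfkm differed by -0.35 ± 0.19 (limma adjusted p = 0.347). Pfkfb3, which makes the allosteric activator of phosphofructokinase, was higher in each dKO array (at least 7.62) than in each control array (at most 7.51), with a difference of 0.53 ± 0.17 that did not pass (limma adjusted p = 0.124).

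In lower glycolysis 2 of 7 genes rose (28.6%) and none fell. Of all genes 8.05% were called, and of those with a mean level of at least 8, 16.2%. Counts this small are a description. Pkm, the pyruvate kinase of most cells, was at 9.85, 9.19 and 9.24 in control and 10.30, 10.69 and 10.56 in dKO arrays. Control replicate 1 stood closest to the dKO values. Pkm rose 2.13-fold (1.09 ± 0.22 in log2 units with its SE, limma adjusted p = 0.0289). The files do not say which Pkm splice forms its single probe set matches. Pgam1, the phosphoglycerate mutase, was at 10.39, 10.48 and 10.37 in control and 11.04, 11.24 and 11.19 in dKO arrays, again without overlap, a 1.68-fold rise (0.75 ± 0.13 in log2 units with its SE, limma adjusted p = 0.0193). Leaving out any array but control replicate 1 ended the call of Pkm (adjusted p up to 0.0935), and any array but dKO replicate 1 that of Pgam1 (up to 0.0679). Pgam1 and Ldha have processed pseudogenes whose transcripts such probes could also match, which was not tested.

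The other genes of this stretch did not pass by their representative probe sets. Pgk1, the phosphoglycerate kinase, was at 11.22, 11.13 and 10.87 in control and 11.50, 11.70 and 11.81 in dKO arrays (log2 difference 0.60 ± 0.16 SE, limma adjusted p = 0.0733). Its other 2 probe sets passed, with log2 changes of 0.66 and 0.52 (limma adjusted p = 0.0271 and 0.0471). Both are of the _x_at type, whose probes can match other transcripts. The representative probe sets of Aldoa, Tpi1, Pgd, Tkt and Mdh1 are of this type too. Aldoa, the main aldolase of most tissues, differed by 0.43 ± 0.14 (limma adjusted p = 0.119), with all 3 dKO arrays above the controls. Aldoc, the brain-type aldolase, was at 6.92, 7.14 and 6.54 in control and 5.13, 6.39 and 5.44 in dKO arrays, a difference of -1.21 ± 0.33 (limma adjusted p = 0.0823). It passed without dKO replicate 2 (-1.58, limma adjusted p = 0.0278) and by the mean over its probe sets (-0.96, limma adjusted p = 0.0278). Tpi1, the triosephosphate isomerase, differed by -0.02 ± 0.16, a sign that turned when each array was centred on its median (0.037). Eno2, the neuron-type enolase, differed by 0.62 ± 0.42, with control replicate 1 at 5.78 and the other arrays at 7.27 to 7.56. Gapdh was measured here by array control probe sets outside the test. Its 3' probe set read from 12.25 to 12.32 in the controls and from 12.60 to 12.65 in the dKO arrays. The mean difference was 0.35 (log2) there, 0.23 at the middle probe set and 0.18 at the 5' probe set. The 5' set read 9.89 to 10.16 in the controls and 10.17 to 10.26 in the dKO arrays. The part of RNA quality in these differences was not tested.

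Lactate handling held calls in both directions at 3 of 4 genes (75%). The share called was 8.05% over all genes and 16.2% among those with a mean level of at least 8. So small a count is a description. Slc16a1, the monocarboxylate transporter MCT1, was at 9.22, 9.12 and 9.02 in control and 7.43, 7.83 and 7.22 in dKO arrays. The nearest arrays of the groups were 1.19 log2 units apart. It fell by 1.63 ± 0.18 log2 units (SE), a 3.09-fold drop (limma adjusted p = 0.00538), the largest fall among the 44 genes. The second Slc16a1 probe set, at 3.03 to 3.83, lay in the range of the array's negative controls (2.13 to 3.92) and does not measure the gene above it. Slc16a3, the exporter MCT4 of strongly glycolytic cells, was at 6.29, 6.22 and 5.70 in control and 6.79, 6.81 and 6.55 in dKO arrays. It was higher in each dKO array, by 0.65 ± 0.19, and did not pass (limma adjusted p = 0.101).

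Lactate dehydrogenase is a tetramer of Ldha and Ldhb subunits, and tetramers rich in Ldha are known to favour the making of lactate. Ldha was at 11.12, 11.14 and 11.09 in control and 11.63, 11.70 and 11.60 in dKO arrays, a tight separation. It rose 1.44-fold (0.53 ± 0.12 in log2 units with its SE, limma adjusted p = 0.0473). Ldhb was at 10.20, 10.31 and 10.44 in control and 8.63, 9.52 and 9.48 in dKO arrays, with dKO replicate 1 far below the other 2. It fell by 1.11 ± 0.25 log2 units (SE), a 2.16-fold drop (limma adjusted p = 0.0448). Its 3 other probe sets differed by -0.97 to -0.96 with adjusted p of 0.0548 to 0.108. Both calls sat at the edge of the threshold and were lost in all 6 leave-outs (limma adjusted p up to 0.132 for Ldha and 0.124 for Ldhb), with the direction kept.

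**Figure D2:**
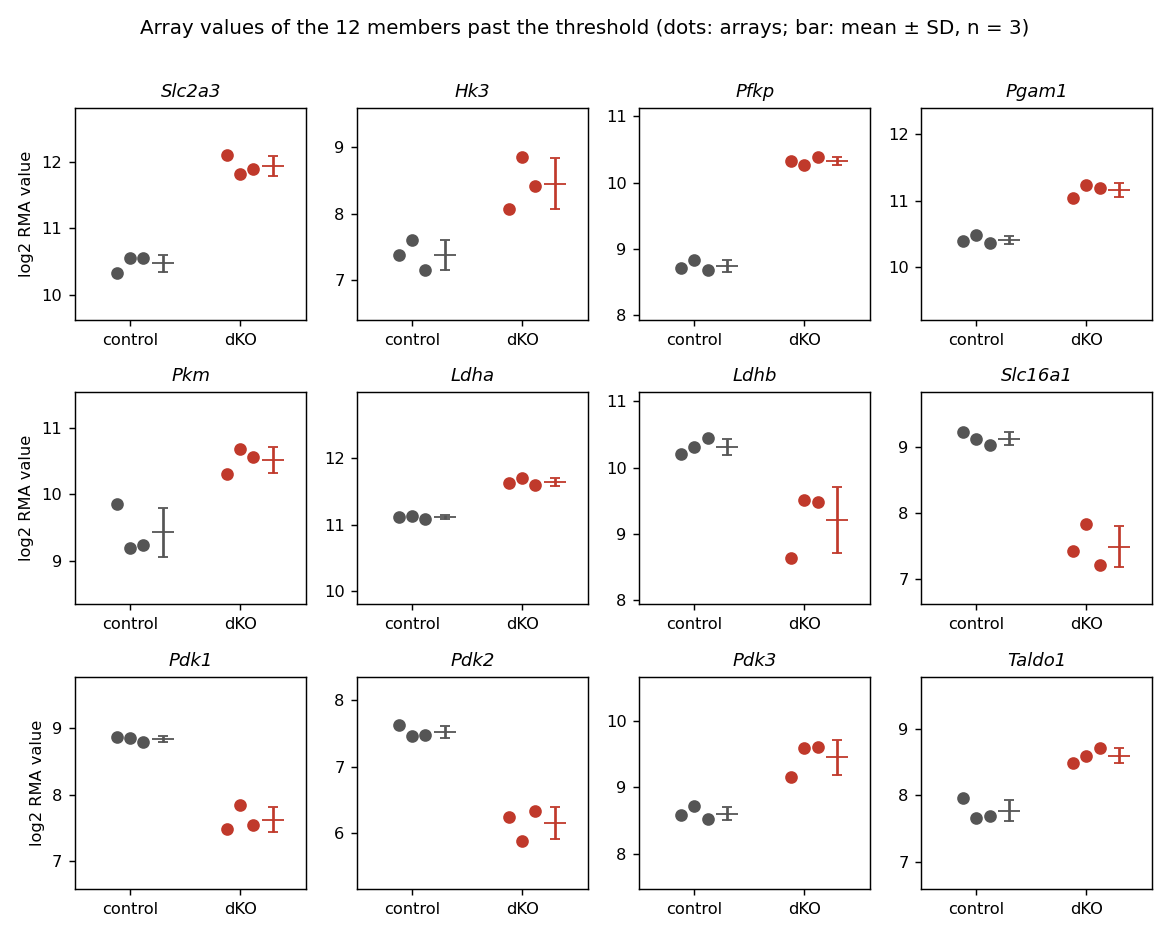
Log2 RMA values of the 6 arrays (vertical axes, each spanning the same number of log2 units) are drawn for the 12 called genes, with the mean ± SD of 3 arrays beside the dots. In all 12 panels the groups do not overlap, with Ldha the most compact and Ldhb spread by dKO replicate 1.

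The pyruvate dehydrogenase kinases changed by isoform. Pdk1 was at 8.87, 8.85 and 8.80 in control and 7.49, 7.84 and 7.55 in dKO arrays, and fell by 1.21 ± 0.14 log2 units (SE), a 2.32-fold drop (limma adjusted p = 0.00602). All 3 of its other probe sets fell as well, by 1.10 to 1.85. Pdk2 was at 7.63, 7.46 and 7.48 in control and 6.24, 5.88 and 6.34 in dKO arrays. It fell by 1.37 ± 0.16, or 2.59-fold (limma adjusted p = 0.00596). The highest dKO array was 0.96 log2 units under the lowest control array for Pdk1 and 1.13 under it for Pdk2.

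Pdk3 moved the opposite way, from 8.58, 8.71 and 8.53 to 9.16, 9.59 and 9.61. It rose 1.80-fold (0.85 ± 0.17 in log2 units with its SE, limma adjusted p = 0.0293), with dKO replicate 1 the lowest of its group. Leaving out any array but dKO replicate 1 ended this call (adjusted p up to 0.0938). The subunits of the pyruvate dehydrogenase complex itself did not pass. The log2 difference was -0.38 ± 0.17 for Pdha1 and 0.08 ± 0.15 for Pdhb, the E1 subunits, and -0.36 ± 0.19 for Dlat, the E2 subunit. The groups overlapped for each of these representative probe sets. A further Dlat probe set was lower in each dKO array than in each control array (log2 difference -0.51, limma adjusted p = 0.103). Another differed by -0.37, with overlap.

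Of the 5 measured pentose phosphate genes, which supply NADPH and ribose, 1 rose (20%). Of all genes 8.05% were called, and 16.2% of those with a mean level of at least 8. Taldo1, the transaldolase of the non-oxidative branch, was at 7.96, 7.66 and 7.69 in control and 8.49, 8.59 and 8.71 in dKO arrays. The lowest dKO array was 0.53 above the highest control array. The rise was 1.78-fold (0.83 ± 0.15 in log2 units with its SE, limma adjusted p = 0.0205), and leaving out any array but control replicate 1 ended the call (adjusted p up to 0.0703). In the oxidative branch, the lactonase Pgls differed by -0.33 ± 0.16 and the dehydrogenase Pgd by 0.25 ± 0.17. Tkt, the transketolase and the brightest probe set of the list at 11.89 to 12.18, differed by -0.11 ± 0.14, and the isomerase Rpia by 0.10 ± 0.13. None of these 4 passed, and their groups overlapped by the representative probe sets.

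By their representative probe sets, none of the 13 TCA cycle and feeder genes passed limma's test, and 1, Me2, had an unadjusted p under 0.05. Their median level was 9.16. With 8.05% of all genes called, and 16.2% of those with a mean level of at least 8, a count of 0 among 13 is a description. It sets these genes apart from no others. Sdhb, a TCA cycle gene outside the 13, rose and is described with the other pathway genes. The count was 0 in all 13 alternative settings too. Their median difference was 0.11 (log2) and their median absolute difference 0.12, against 0.21 over all genes. The 95% confidence intervals of the representative probe sets, from limma's SE, reached down to -0.99 for Idh1 and up to 1.28 for Me2. Changes of up to those sizes lie inside the intervals of Idh1 and Me2. Those of the other genes were narrower, such as that of Mdh1, from -0.30 to 0.28.

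The entry enzyme citrate synthase, Cs, was at 10.71, 10.53 and 10.08 in control and 10.72, 10.78 and 10.57 in dKO arrays, a difference of 0.25 ± 0.19 (SE) with overlap. Its 2 other probe sets were higher in each dKO array than in each control array. They differed by 0.38 and 0.51 and did not pass (limma adjusted p = 0.184 and 0.120). The isocitrate dehydrogenases differed by -0.46 ± 0.22 for the cytosolic Idh1, 0.18 ± 0.19 for the mitochondrial NADP-linked Idh2, and 0.23 ± 0.17 for Idh3a of the NAD-linked cycle enzyme. The other Idh1 probe set was lower in each dKO array than in each control array (log2 difference -0.65, limma adjusted p = 0.0868). The other Idh2 probe set had a difference of -0.26, and the mean over both probe sets was -0.038, so no direction can be given for it. Idh3a likewise had a mean over probe sets of -0.060.

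For the 2-oxoglutarate dehydrogenase subunits Ogdh and Dlst the differences were 0.11 and 0.11, and for the succinyl-CoA ligase subunits Sucla2 and Suclg1 they were -0.05 and 0.12. The other Ogdh probe set differed by 0.45, with overlap (limma adjusted p = 0.304). Fumarase, Fh1, differed by 0.06 and turned to -0.011 after quantile normalization. Sucla2 turned to 0.0067 with arrays centred on the median. The malate dehydrogenases Mdh1 (cytosolic) and Mdh2 (mitochondrial) differed by -0.01 and 0.23. Mdh1 turned to 0.049 with arrays centred on the median, and Mdh2 was higher in each dKO array (11.28 to 11.56) than in each control array (11.13 to 11.25).

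Of the feeder enzymes, Me2, the mitochondrial malic enzyme, was at 7.83, 7.90 and 7.80 in control and 8.30, 8.19 and 9.11 in dKO arrays. Its difference of 0.69 ± 0.25 rested in part on dKO replicate 3, the highest array, and did not pass (limma adjusted p = 0.160). The other Me2 probe sets differed by 0.06 to 0.29, with overlapping groups. Pcx, pyruvate carboxylase, was the dimmest representative probe set of the list, at 5.66 to 6.29, and differed by 0.05 ± 0.18.

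The contrast between isoforms of 1 step was then measured within arrays, as the log2 value of the first gene minus that of the second. Such a difference shows unequal change, not which isoform is more abundant. Of 12 pairs, 9 had groups that did not overlap. Among single genes 30.0% did not overlap, the share for gene pairs was not computed, and the pairs were chosen with earlier results of their genes known, so the count is a description. Over the 20 ordered splits of 3 against 3 arrays the smallest exact two-sided permutation p is 0.1, and those 9 reached it (0.133 after Benjamini-Hochberg adjustment over the 12 pairs), so no pair could pass 0.05.

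Slc16a3 minus Slc16a1 showed the largest shift, of 2.27 (log2), from -2.93, -2.90 and -3.32 in control to -0.64, -1.03 and -0.67 in dKO arrays. With the mean over probe sets, which takes in the dim Slc16a1 probe set, it was 1.62. Pfkp minus Pfkl shifted by 2.23, from 0.63, 0.55 and 0.77 to 3.08, 2.50 and 3.07, and Pfkp minus Pfkm by 1.93. Pdk3 minus Pdk1 shifted by 2.06, from -0.30, -0.14 and -0.27 to 1.67, 1.75 and 2.06. In these 4 pairs the nearest control and dKO arrays were at least 1.58 log2 units apart.

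Ldhb minus Ldha shifted by -1.64, from -0.92, -0.82 and -0.64 to -3.00, -2.19 and -2.11, Aldoc minus Aldoa by -1.63 and Slc2a3 minus Slc2a1 by 1.11. The 2 smallest shifts without overlap were those of Hk3 minus Hk1 (0.73) and Mdh2 minus Mdh1 (0.24), with gaps of 0.06 log2 units each between the nearest arrays of the groups. The groups overlapped for Hk1 minus Hk2 (0.27), Idh2 minus Idh1 (0.64) and Pdk2 minus Pdk1 (-0.16). Pdk1 and Pdk2 both fell.

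**Figure D3:**
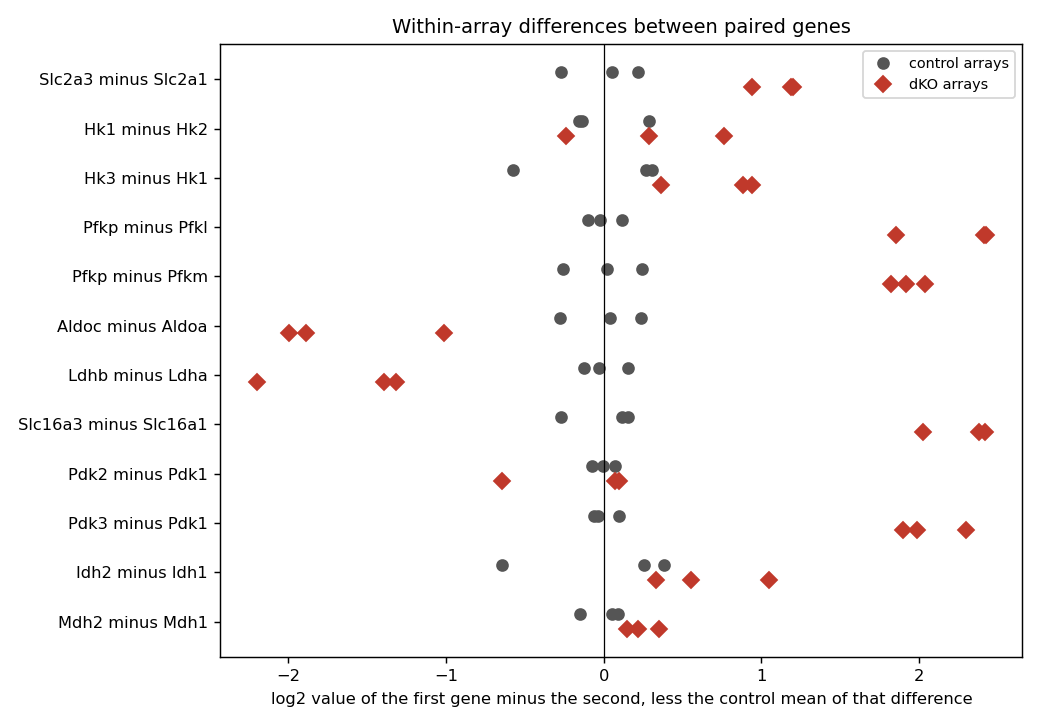
For each of 12 gene pairs, the log2 value of the first gene minus that of the second is drawn per array (horizontal axis), less the mean of the control arrays, with grey circles for the 3 control and red diamonds for the 3 dKO arrays. Slc16a3 minus Slc16a1, Pfkp minus Pfkl or Pfkm, and Pdk3 minus Pdk1 lie furthest to the right, and Ldhb minus Ldha and Aldoc minus Aldoa furthest to the left.

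Of 67 other genes of these pathways, 57 had a probe set of 1 gene, and 4 rose and 3 fell (12.3% called, against 8.05% of all genes). Pdp1, the phosphatase that opposes the Pdk kinases, rose by 0.99 ± 0.23 (SE, log2, limma adjusted p = 0.0488). Its values were 7.30, 7.53 and 7.02 in control and 7.84, 8.42 and 8.56 in dKO arrays. Rpe, the epimerase of the pentose phosphate pathway, rose by 0.73 ± 0.16, Sdhb, the iron-sulphur subunit of succinate dehydrogenase, by 0.64 ± 0.15, and Gpd2, the mitochondrial glycerol phosphate dehydrogenase, by 0.83 ± 0.15 (limma adjusted p = 0.0384, 0.0490 and 0.0240). Sdhb belongs to the TCA cycle but not to the 13 genes above.

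Slc2a9, a urate and hexose transporter, fell by 1.16 ± 0.15 (limma adjusted p = 0.00783), from 9.90, 9.94 and 9.57 to 8.72, 8.60 and 8.62. Pck2, the mitochondrial PEP carboxykinase, fell by 1.03 ± 0.19 (limma adjusted p = 0.0248). Slc2a10, the transporter GLUT10, fell by 1.45 ± 0.33 (limma adjusted p = 0.0468), with dKO values of 3.93 to 4.20 just above the negative controls. Of these 7 calls, that of Slc2a9 was kept in all 6 leave-outs. Those of Rpe and Sdhb were lost in all 6, and the remaining 4 were each kept in 1. With 1 array left out, 2 of the 57 rose without dKO replicate 1 and 0 in the other 5 leave-outs. Of falls there were 3 without control replicate 3, 2 without dKO replicate 2 and 1 in each of the others. By the mean over probe sets, the log2 change of Rpe was 0.26 (limma adjusted p = 0.463), that of Gpd2 0.38 (0.271) and that of Slc2a9 -0.57 (0.0615).

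Markers of other blood cells were read beside these results, since Hk3 is typical of myeloid cells and Pfkp of platelets. Of 8 megakaryocyte and platelet markers, Ppbp, Pf4 and Itga2b rose (by 5.67, 1.11 and 1.16, log2), Vwf fell by 1.04, and 4 did not pass. Their summed level (log2) ran from 11.66 to 11.89 in the controls and from 12.81 to 13.49 in the dKO arrays. Of 9 monocyte and macrophage markers, C1qb rose by 1.79 and Mrc1 rose too. Mrc1 was at 3.85 to 3.94 in the controls, at the top of the negative control range, and at 5.05 to 6.56 in dKO arrays. None of the others passed. Csf1r and Adgre1 differed by -0.13 and -0.46. Cd68, C1qa, C1qc, Vcam1 and Itgam differed by 0.37, 0.49, 0.29, 0.31 and 0.14. The sum over the 9 went from 8.17 to 8.40 up to 8.64 to 9.04. None of 8 granulocyte markers passed, and their sums overlapped, at 9.80 to 11.35 and 8.47 to 10.22. The part of these markers in the rises of Hk3, Pfkp and Slc2a3 was not tested.

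Of 7 T and NK cell markers Thy1 rose by 1.25, and Cd3e, Cd3d, Cd4, Cd8a, Cd8b1 and Ncr1 did not pass. Their differences lay between -0.18 (Cd4) and 0.34 (Ncr1). The sum over the 7 ran from 8.77 to 9.04 in the controls and from 9.48 to 9.88 in the dKO arrays. Thy1 was the brightest of the 7, at 7.73 to 8.22 in the controls and 8.90 to 9.49 in the dKO arrays. None of 5 B cell markers passed, with sums of 7.93 to 8.23 and 8.14 to 8.63, and Ms4a1, a defining marker, was in the negative control range on all arrays. Of 5 erythroid markers Klf1 and Tfrc fell, and the sum ran from 9.86 to 10.24 in the controls and from 8.99 to 9.47 in the dKO arrays.

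**Figure D4:**
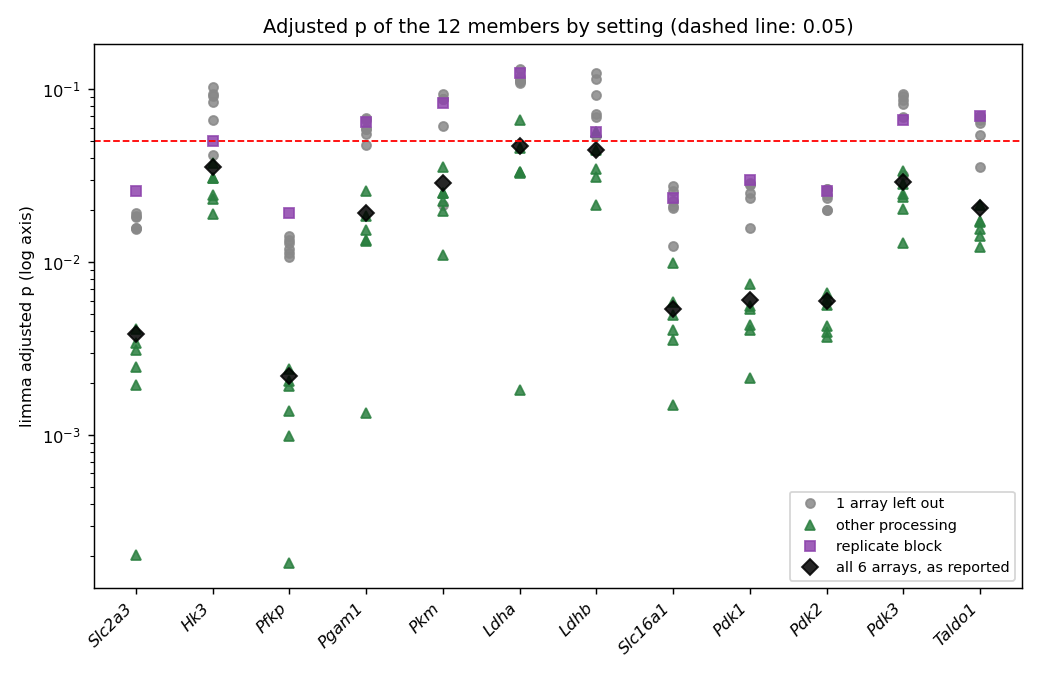
Limma adjusted p (log axis) of the 12 called genes is drawn with all 6 arrays (black diamonds), with 1 array left out (grey circles), with the replicate block (purple squares) and under other processing (green triangles). Slc2a3, Pfkp, Slc16a1, Pdk1 and Pdk2 stay under the dashed line at 0.05 throughout, and Ldha and Ldhb sit just under it with all arrays and above it in each leave-out.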

How the data were processed

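RNA of sorted LT-HSCs was purified with Trizol, amplified in 2 rounds (NuGEN WT-Ovation Pico) and biotin-labelled, per the labels' protocols. Amplification can distort differences between transcripts. The deposited values are RMA expression values of 45101 probe sets per array, with RMA named, without a version, in the submitters' processing notes, and were deposited by the authors. The log2 scale follows from the range of the deposited values, 1.49 to 13.80. RMA scales arrays to each other, so changes are relative.

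Each of the 45037 non-control probe sets entered 1 limma fit, by lmFit and eBayes (limma 3.58.1 in R 4.3.3), for dKO minus control (degrees of freedom: 4 residual, 3.19 prior), with Benjamini-Hochberg adjustment over all of them. Groups and replicate numbers come from the titles. The numbers do not pair the samples, so no block was used. Nothing names further batches, and p-values measure the spread between pools. Members, lists and named genes (all members, called genes of the other list) were chosen with earlier results of these data known. Probe set names come from the platform annotation. Negative controls were 3 probe sets. Isoform pairs had an exact permutation test (scipy 1.17.1). The fit was tested on simulated data with known changes, in far fewer probe sets than were called here. It called 29% of changes of 1 log2 unit and 79% of those of 2, with 4 false calls. Alternatives were 2 scalings, a level filter, another prior, array weights, a replicate block, means over probe sets and leave-outs.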

Additional observations from a re-analysis of the deposited data

How the results depend on the processing

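With the replicate block, 2 members rose (against 8) and 3 fell (against 4), and 0 of the other pathway genes rose (against 4). Nothing in the labels ties equal replicate numbers together, and same-numbered samples did not deviate together: the correlations of their deviations from the group means were -0.016, 0.0024 and 0.013, and no sample correlated best with its own number. The block also leaves fewer degrees of freedom, and over the array it called 1530 probe sets, against 3146. With array weights, or with means over probe sets, 2 other pathway genes rose. With 1 array left out, 2 to 5 members rose, 3 to 4 fell, 0 to 2 other genes rose and 1 to 3 fell, and 1338 to 1674 probe sets were called. With the trended robust prior 10 members rose, Aldoa and Pgk1 being added.

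Among the members, the 7 other called genes and the isoform pairs, directions turned only for values that were not called, the largest of them 0.23 (Idh3a). With each array centred on its median these were Tpi1 (0.037), Sucla2 (0.0067) and Mdh1 (0.049), after quantile normalization Fh1 (-0.011), and by means over probe sets Idh2 (-0.038), Idh3a (-0.060), Mdh1 (0.034) and the Pdk2 minus Pdk1 shift (0.063). With 1 array left out the differences ranged from -0.090 to 0.32 for Hk2, -0.15 to 0.053 for Tpi1, -0.023 to 0.19 for Pdhb, -0.0100 to 0.34 for Idh2, -0.046 to 0.22 for Ogdh, -0.19 to 0.081 for Sucla2, -0.11 to 0.18 for Fh1, -0.039 to 0.024 for Mdh1, -0.10 to 0.21 for Pcx and -0.29 to 0.085 for the Pdk2 minus Pdk1 shift. The causes were not tested.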
